A study of Mus musculus with 12 samples.

Results

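Rab GTPases were followed in G1ME cells, an immortal mouse progenitor line that lacks Gata1 and can mature along the megakaryocyte or the erythroid path. Members were taken by name, as probe sets annotated to a single gene whose symbol is Rab, a number and at most a letter a to d. This gave 59 genes and 132 probe sets, of 18193 genes and 45101 probe sets on the Affymetrix array. Each gene is represented by its brightest probe set, by the mean over all 12 arrays.

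The cells carried a GATA1 retroviral construct or the empty MIGR1-GFP vector, and GFP-positive cells were sorted 42 or 18 hours after transduction. The 4 groups are GATA1 at 42 h, vector at 42 h, GATA1 at 18 h and vector at 18 h, with 3 arrays each, described by the submitters as biological triplicates and lettered A, B and C. All groups share the Gata1-deficient background, GFP and the sort, and all come from 1 cell line. Values are the authors' processed intensities on a linear scale. The median probe set of an array lay between 8.05 and 8.29, and the lowest reading was 1.64. Readings near or below this median are called the bottom of the scale here. The number of arrays limits the precision. GATA1 42 h replicate A stood apart on both RNA-quality controls, with log2 3′ over 5′ ratios of 0.80 for actin and -0.11 for Gapdh, where the other 11 arrays had 0.38 to 0.55 and -0.50 to -0.26. Without it the 42 h count of called Rab genes given below was also 14, with 5 rises and 9 falls, but the lists shared 10 genes. Rab7, Rab27a, Rab27b and Rab37 no longer passed limma without that array, and Rab2b, Rab18, Rab24 and Rab32 passed.

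The Gata1 probe set did not follow the labels. It read 2043.5 ± 354.5 (SD, n = 3) in GATA1 cells and 3136.5 ± 115.5 (SD, n = 3) in vector cells at 42 h, with no record here of whether the construct holds the probed stretch. Arrays are therefore named by their label throughout, and every direction rests on those labels. Klf1, an erythroid transcription factor driven by GATA1, read 4231.1 ± 271.2 in GATA1-labelled and 241.6 ± 43.0 in vector-labelled cells at 42 h (SD, n = 3 each). Among the lineage lists, 10 of 11 tested erythroid and 7 of 13 tested megakaryocyte markers rose at 42 h, and 1 of each fell. These counts are no independent test of the labels. Hba-x, Car1 and Vwf lay below the array median on all vector-labelled arrays. They were tested only through GATA1-labelled arrays, so the filter favoured their rise. Of all tested genes 10.3% rose and 10.6% fell.

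Rab proteins are small GTPases that label membranes. Bound to GTP they recruit effectors that move, tether and fuse vesicles, and bound to GDP they are extracted from the membrane by GDI. Guanine nucleotide exchange factors (GEFs) load them with GTP and GTPase-activating proteins (GAPs) switch them off. In the megakaryocyte lineage the best known members are Rab27a and Rab27b, which in mice act in the packaging and release of platelet dense granules, and Rab32 and Rab38, which supply cargo to those granules and to melanosomes.

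At 42 h, 10 of the 45 tested Rab genes fell and 4 rose in GATA1-labelled against vector-labelled cells. The falls were led by Rab31, Rab44 and Rab17, and 5 of the 10 belong to secretory granules and lysosome-related organelles. The rises were Rab22a, Rab11a, Rab4a and Rab37. Rab27b was among the falls, to 0.728 of its vector level. A gene was tested when its probe set exceeded the array median on at least 3 of 12 arrays, and it counted as changed at a limma adjusted p (Benjamini-Hochberg over 10759 genes) below 0.05.

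Across all tested genes the same rule called 20.9% at 42 h, 10.3% higher and 10.6% lower. The 14 Rab genes are 31.1% of the 45 tested, 8.89% as rises and 22.2% as falls. The median log2 change was -0.06 over the Rab genes and 0.001 over all tested genes. Of the 14, 3 changed by more than 2-fold on their brightest probe sets. The GATA1-labelled and vector-labelled arrays did not overlap for any of the 14. Over all 45 tested Rab genes, 7 were higher and 14 lower without overlap, against 16.8% and 16.6% of all tested genes. At 18 h the counts were 4 higher and 9 lower, against 5.47% and 9.87%.

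**Figure D1:**
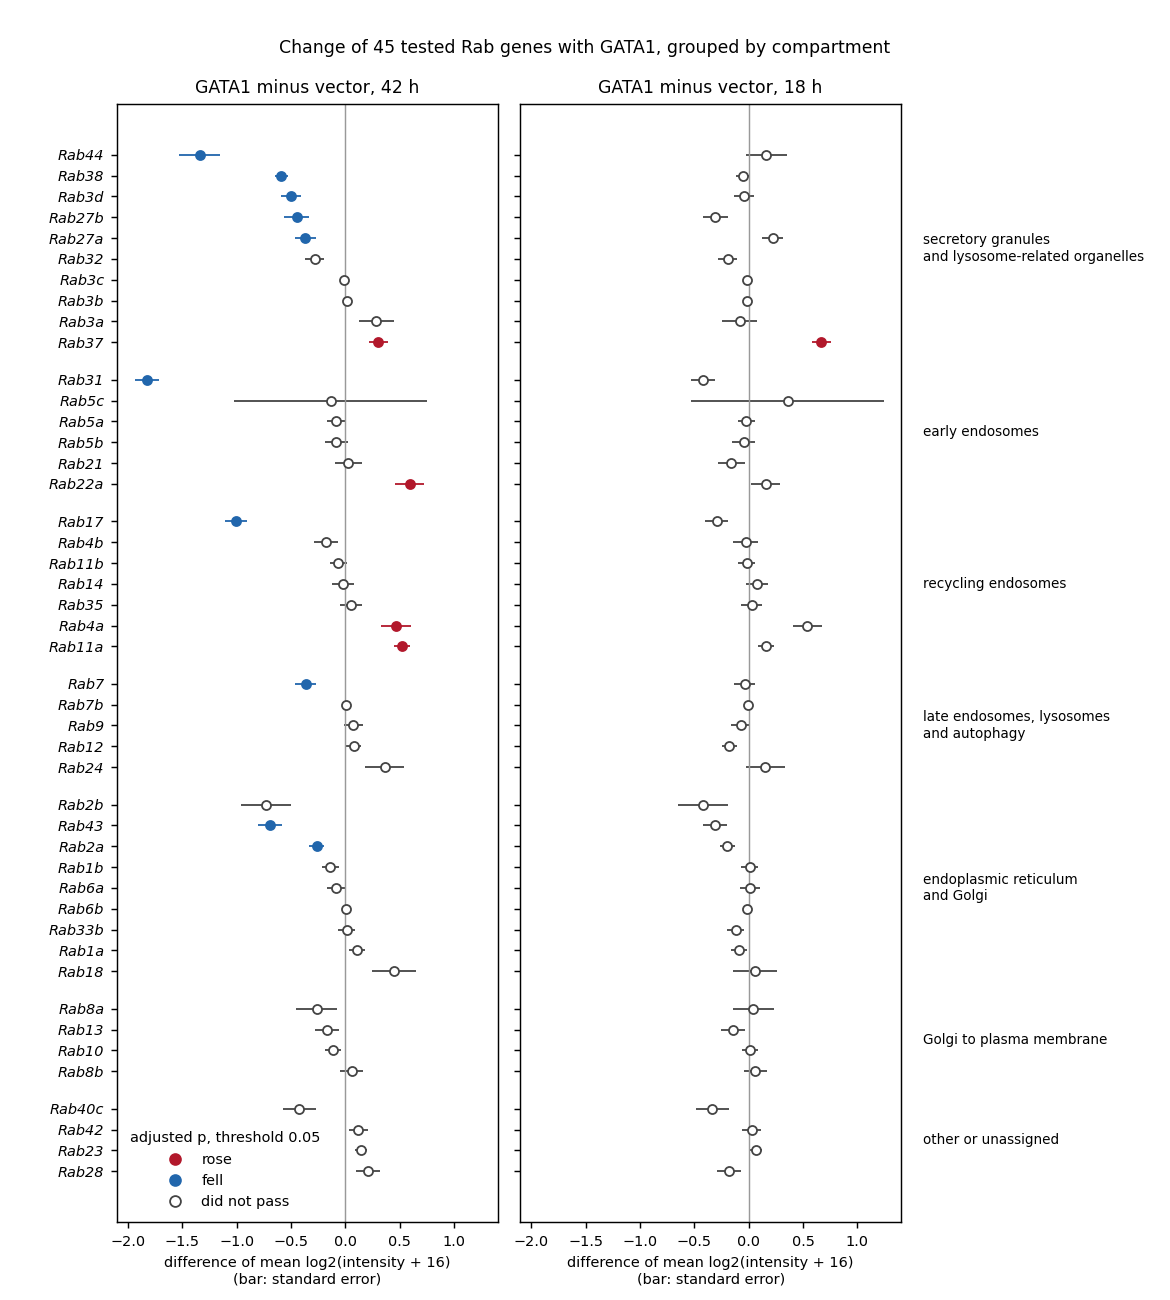
Difference of mean log2(intensity + 16), GATA1-labelled minus vector-labelled, for the 45 tested Rab genes at 42 h (left) and 18 h (right), grouped by compartment, with filled points for genes that passed the test and bars for the standard error. At 42 h 10 genes fell and 4 rose, while at 18 h only Rab37 passed, and the wide bar belongs to Rab5c.

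Rab31, which acts between the trans-Golgi network and endosomes, had the lowest log2 change at 42 h at the pseudocount of 16. Its intensity was 159.6, 157.2 and 127.1 on the GATA1-labelled arrays and 642.6, 512.9 and 536.9 on the vector-labelled arrays at 42 h. At 18 h it read 445.7, 473.0 and 544.1 with GATA1 and 630.2, 708.3 and 633.2 with vector. Only the 42 h GATA1-labelled arrays were far below the rest, although the 18 h groups did not overlap either. The 42 h log2 change was -1.82 ± 0.11 (SE; limma adjusted p = 4.797e-06), and the 18 h change of -0.42 did not pass (adjusted p = 0.1334). A second Rab31 probe set fell by 1.59 ± 0.33 on the log2 scale at 42 h, with a limma adjusted p of 0.0088555 over 19636 probe sets.

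Rab44, a large Rab known from mouse mast cell degranulation, was the next at that pseudocount, and on linear means it lay below Rab31, at 0.206 of its vector level against 0.262 for Rab31. It read 8.436, 12.65 and 12.75 on the GATA1-labelled arrays at 42 h, close to the bottom of the scale, and 74.06, 55.87 and 34.42 on the vector-labelled arrays. At 18 h the groups overlapped, at 58.06, 67.22 and 50.47 with GATA1 and 56.07, 43.34 and 52.65 with vector. The 42 h change was -1.34 ± 0.19 (limma adjusted p = 0.0008204), and because the intensities are low it depended on the pseudocount of 16. It was -2.14 with a pseudocount of 1 and -0.65 with a pseudocount of 64, and both passed. Rab31 gave -1.92 and -1.57 there, so the order of the genes turned at a pseudocount of 1.

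Rab17, best known for transcytosis and recycling in epithelial cells, read 165.3, 164.0 and 175.6 with GATA1 and 367.7, 358.3 and 335.9 with vector at 42 h. The GATA1-labelled arrays lay close together and below every other array of the series. At 18 h it read 232.8, 256.0 and 280.2 with GATA1 and 266.0, 362.4 and 331.2 with vector, where the groups overlapped. Its change was -1.0 ± 0.10 at 42 h (limma adjusted p = 0.0001166). A second Rab17 probe set fell less, by 0.57 ± 0.14 on the log2 scale at 42 h, with a limma adjusted p of 0.022869 over 19636 probe sets.

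Rab27b, on chromosome 18, was already bright without GATA1 and was lower in GATA1-labelled cells. Its brightest probe set read 1413.8, 1485.2 and 1333.3 on GATA1-labelled and 1642.6, 2134.2 and 2033.5 on vector-labelled arrays at 42 h. Its 18 h values were 1899.3, 1703.1 and 2040.4 with GATA1 and 2564.2, 2056.7 and 2393.1 with vector. At both times every GATA1-labelled array was below every vector-labelled one. The 42 h log2 change of -0.45 ± 0.12 passed (limma adjusted p = 0.02239), and the 18 h change of -0.31 ± 0.12 did not (adjusted p = 0.3482). The difference between the effects at the 2 times was -0.14 ± 0.16 (limma adjusted p = 0.8316).

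Of the 13 tested megakaryocyte and platelet markers 7 rose, 1 fell and 5 did not pass at 42 h, with a median change of 0.60. The shares over all tested genes were 10.3% higher and 10.6% lower. Vwf, Thbs1 and Tubb1, which encode proteins of platelet granules and of the platelet microtubule ring, rose by 5.34, 5.69 and 4.01 on the log2 scale at 42 h. Vwf was tested only through its GATA1-labelled arrays, so the filter favoured its rise. Gp9, a subunit of the platelet receptor for Vwf, fell by 0.38 (limma adjusted p = 0.04232), close in size to Rab27b. At 42 h the summed intensity of the 14 megakaryocyte and platelet markers with a probe set was 41323 to 50763 on GATA1-labelled and 20737 to 22235 on vector-labelled arrays. In bulk RNA, fewer cells of a type and less RNA per cell cannot be told apart.

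The other probe sets of Rab27b gave less certain values. The second changed by -0.37 ± 0.27 at 42 h (limma adjusted p = 0.44756) and the third by -0.66 ± 0.25 (limma adjusted p = 0.11821), both over 19636 probe sets, and the fourth lay at the bottom of the scale. The call on the brightest probe set ended without GATA1 42 h replicate A or C or vector 42 h replicate B or C, with adjusted p of 0.0523 to 0.0795 and changes of -0.45 to -0.37. It also ended when only the 6 arrays of 42 h were fitted, with a limma adjusted p of 0.05657.

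**Figure D2:**
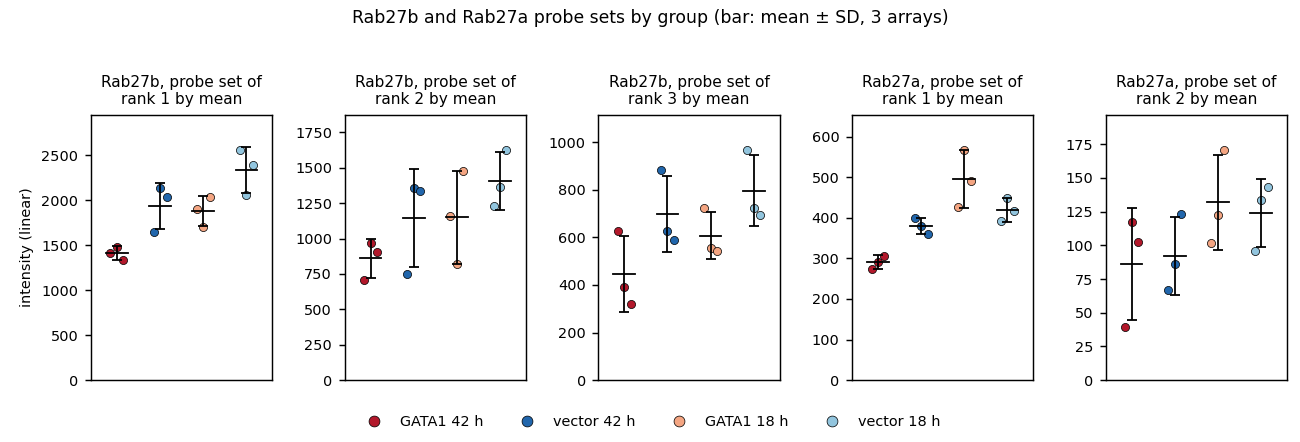
Linear intensity of the Rab27b and Rab27a probe sets above the bottom of the scale, by group, with 1 point for each array and bars for mean ± SD (n = 3). In the brightest Rab27b probe set all GATA1-labelled arrays lie below all vector-labelled arrays at each time, and the second sets of both genes overlap at 42 h.

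Rab27a, which releases melanosomes and the granules of cytotoxic cells, shares effectors with Rab27b. It read 273.5, 291.9 and 306.6 with GATA1 and 400.0, 380.3 and 360.5 with vector at 42 h. The 18 h arrays gave 425.5, 568.2 and 489.8 with GATA1 and 391.4, 448.9 and 417.7 with vector, so the groups overlapped with a higher GATA1 mean. The 42 h change of -0.37 ± 0.10 passed (limma adjusted p = 0.02337), and the 18 h change of 0.22 ± 0.10 did not (adjusted p = 0.4862). The 42 h call was lost on leaving out GATA1 42 h replicate A or B or vector 42 h replicate A or B, with adjusted p of 0.0626 to 0.0803 and changes of -0.37 to -0.33. The second Rab27a probe set changed by -0.15 ± 0.34 at 42 h (limma adjusted p = 0.87992), and the call also ended on the mean over probe sets, at -0.12.

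Rab38 read 6067.7, 5647.5 and 5626.9 with GATA1 and 9151.0, 8704.9 and 8239.9 with vector at 42 h. The 18 h arrays, at 8562.6, 8307.2 and 9323.8 with GATA1 and 8448.8, 9377.2 and 9308.4 with vector, resembled the 42 h vector arrays. The 42 h change was -0.59 ± 0.06 (limma adjusted p = 0.000164), against -0.05 for the 18 h arrays (adjusted p = 0.9999). Rab32, its closest relative, read 391.8, 363.8 and 317.1 with GATA1 and 393.0, 436.0 and 487.0 with vector at 42 h, and its change of -0.28 ± 0.09 did not pass (limma adjusted p = 0.05409). Both are activated by the exchange factor BLOC-3, a complex of Hps1 and Hps4, and Hps4 rose by 0.55 on the log2 scale.

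Rab3d and Rab37 mark secretory granules, mast cell granules among them, and moved in opposite directions. Rab3d read 95.37, 119.5 and 106.3 with GATA1 and 174.1, 157.0 and 143.0 with vector at 42 h, a change of -0.50 ± 0.09 (limma adjusted p = 0.003655). At 18 h its change was -0.05. The 42 h call ended on the second probe set and without the arrays of high 18S signal (highest adjusted p = 0.22).

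Rab37 was the single Rab gene called at 18 h, where 1.85% of all tested genes were called, 1.11% as rises and 0.744% as falls. It read 655.3, 744.6 and 617.6 with GATA1 and 574.5, 512.8 and 536.1 with vector at 42 h. The 18 h arrays gave 855.9, 967.0 and 809.9 with GATA1, above all other arrays, and 583.6, 511.5 and 542.6 with vector. The 42 h rise was 0.30 ± 0.09 (limma adjusted p = 0.03664) and the 18 h rise 0.67 ± 0.09 (adjusted p = 0.004669). The 18 h call ended when only the 6 arrays of that time were fitted, on the second probe set, on the mean over probe sets, and without arrays of high 18S signal or lettered A (highest adjusted p = 0.6979). The 42 h call was lost on leaving out GATA1 42 h replicate A or B, vector 42 h replicate B or C, GATA1 18 h replicate A or vector 18 h replicate C, with adjusted p of 0.0509 to 0.124 and changes of 0.23 to 0.32. In all it ended under 13 of 25 alternatives, the second probe set and the mean over probe sets among them.

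Of the 10 tested genes of secretory granules and lysosome-related organelles, 5 fell and 1 rose at 42 h, with a median change of -0.33. Over all tested genes 10.6% fell and 10.3% rose. Cpa3 and Kit, of the mast cell and basophil list, also fell. Of 15 mast cell and basophil markers 13 have a probe set, 3 were tested and 2 fell, as Cpa3 fell by 4.94 and Kit fell by 3.42 on the log2 scale. Hdc, the third tested, read 14.7 to 19.1 over all arrays and did not pass. The summed intensity of the 13 was 144 to 175 on GATA1-labelled and 2017 to 3387 on vector-labelled arrays at 42 h. At 18 h it was 931 to 1034 on GATA1-labelled and 1928 to 2505 on vector-labelled arrays. Most of the sum on the 42 h vector-labelled arrays was Cpa3 and Kit, with means of 2007.7 and 630.8. The 10 untested markers, among them the proteases Mcpt1, Mcpt2, Mcpt4, Cma1 and Tpsb2 and the receptor chains Fcer1a and Ms4a2, stayed at the bottom of the scale on every array. The part of mast cell RNA in the Rab changes was not tested.

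Rab11a and Rab4a, which return receptors such as the transferrin receptor to the cell surface, both rose. Rab11a read 13693.7, 11595.8 and 11622.8 with GATA1 and 8016.1, 8355.6 and 9255.2 with vector at 42 h. The 18 h values were 10793.2, 9942.0 and 10436.3 with GATA1 and 9516.7, 9368.8 and 9038.0 with vector. The arrays did not overlap at either time, with a 42 h change of 0.52 ± 0.08 (limma adjusted p = 0.0009248) and an 18 h change of 0.16 ± 0.08 that did not pass (adjusted p = 0.5678).

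Rab4a read 590.6, 695.6 and 887.7 with GATA1 and 474.1, 559.3 and 505.7 with vector at 42 h. At 18 h it read 693.6, 677.5 and 758.3 with GATA1 and 434.6, 480.4 and 538.7 with vector. All GATA1-labelled arrays were above the vector-labelled arrays of their time, and the 42 h change of 0.47 ± 0.14 passed (limma adjusted p = 0.03737) where the 18 h change of 0.54 ± 0.14 did not (adjusted p = 0.111). The 42 h call ended without GATA1 42 h replicate B or C, vector 42 h replicate A or C, GATA1 18 h replicate A or B or vector 18 h replicate B, with adjusted p of 0.0526 to 0.118 and changes of 0.32 to 0.49. In all it ended under 11 of 25 alternatives, only the 42 h arrays among them. The close relatives Rab11b and Rab4b changed by -0.07 and -0.18 at 42 h and did not pass (limma adjusted p = 0.6768 and 0.3425).

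Rab22a, of early endosomes, read 255.7, 242.2 and 263.1 with GATA1 and 123.3, 198.1 and 175.8 with vector at 42 h. The vector replicate A was the lowest of the series, and the change was 0.59 ± 0.13 (limma adjusted p = 0.01107). Its other 3 probe sets changed by 0.15, -0.06 and 0.07 at 42 h and did not pass (lowest limma adjusted p = 0.68604). The call also ended on the mean over probe sets, with only the 6 arrays of 42 h fitted and without the arrays of high 18S signal. Rab5a and Rab5b, which drive early endosome fusion, changed by -0.09 and -0.08 and did not pass.

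Of 5 tested genes of late endosomes, lysosomes and autophagy, 1 fell and 0 rose at 42 h, against 10.6% and 10.3% of all tested genes. Rab7, which governs late endosomes and their fusion with lysosomes, read 2289.5, 2571.1 and 2937.7 with GATA1 and 3269.0, 3139.1 and 3611.4 with vector at 42 h, a change of -0.36 ± 0.10 (limma adjusted p = 0.02508). The call ended without GATA1 42 h replicate A or B or vector 42 h replicate A or C, with adjusted p of 0.0573 to 0.0793 and changes of -0.38 to -0.28. In all it ended under 10 of 25 alternatives, the mean over probe sets and only the 42 h arrays among them. On the second probe set the change was -0.33 ± 0.24 (limma adjusted p = 0.45023 over 19636 probe sets).

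Between the endoplasmic reticulum and Golgi, 2 of 9 tested genes fell at 42 h, against 10.6% of all tested genes. Rab43 read 195.0, 185.8 and 154.5 with GATA1 and 317.4, 291.8 and 280.4 with vector at 42 h, a change of -0.69 ± 0.11 (limma adjusted p = 0.001801). Rab2a, which tethers vesicles on this route, read 3419.6, 3459.7 and 3196.4 with GATA1 and 3891.9, 4401.5 and 3826.6 with vector at 42 h. Its change of -0.26 ± 0.07 (limma adjusted p = 0.02271) was the smallest of the 14. The Rab2a call ended without GATA1 42 h replicate C or vector 42 h replicate B, with adjusted p of 0.0718 to 0.0761 and changes of -0.23 to -0.20. In all it ended under 5 of 25 alternatives, only the 42 h arrays among them. Its relative Rab2b changed by -0.73 ± 0.23 at 42 h on its brightest probe set and did not pass (limma adjusted p = 0.05333).

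**Figure D3:**
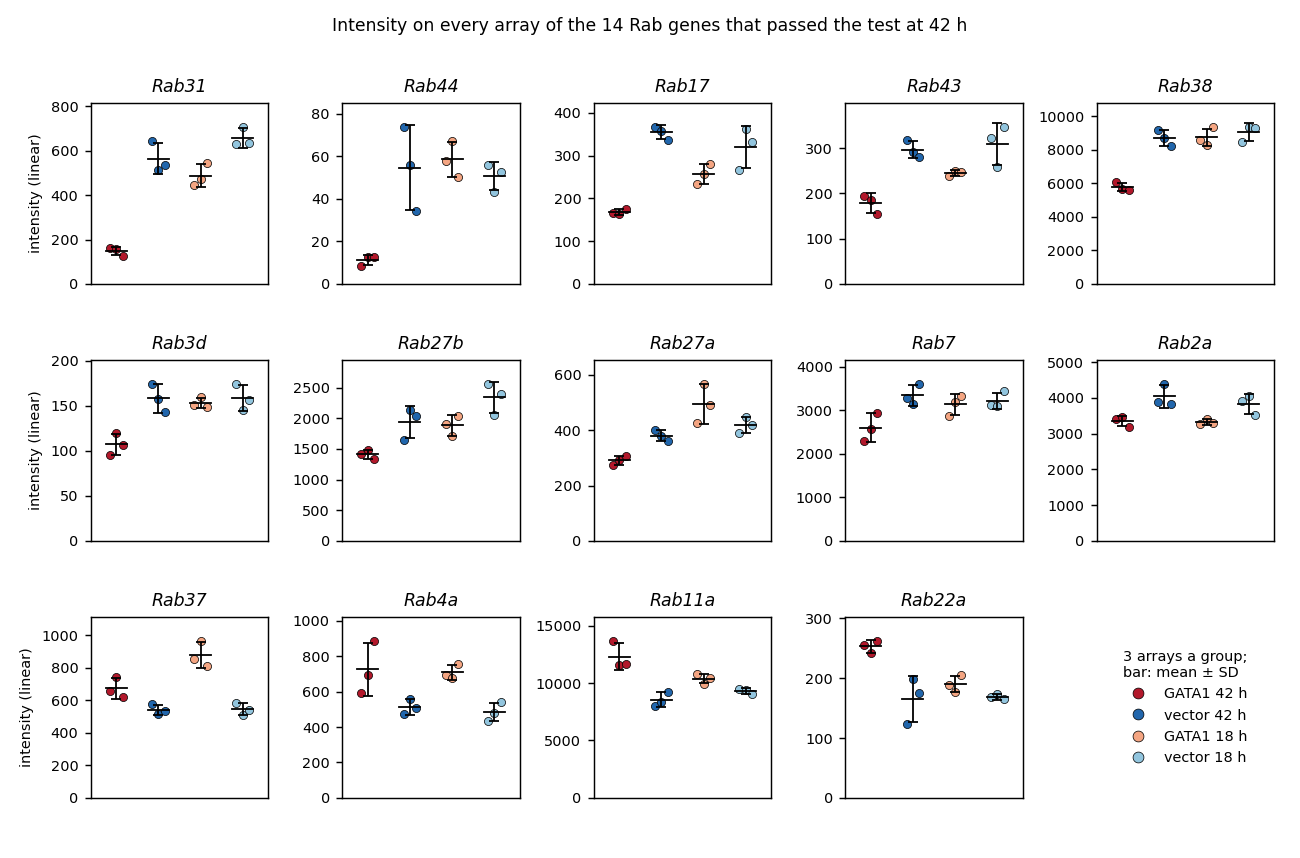
Linear intensity on every array of the 14 Rab genes that passed the test at 42 h, ordered by log2 change, with 1 point for each array and bars for mean ± SD (n = 3). The 42 h GATA1-labelled arrays stand below all other arrays for Rab31, Rab44, Rab17, Rab43, Rab38, Rab3d, Rab27b and Rab27a and above them for Rab11a and Rab22a, while Rab37 is highest with GATA1 at 18 h.

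The remaining 31 tested Rab genes changed by -0.73 to 0.45 at 42 h on their brightest probe sets and did not pass. The 3 brightest of them were Rab1a, Rab10 and Rab14, with changes of 0.11, -0.12 and -0.02. No gene of the Golgi to plasma membrane group passed. Dimmer probe sets of Rab18 and Rab2b that passed are given under the other observations. The 14 untested genes, Rab25, Rab26, Rab33a and Rab39b among them, read 3.67 to 16.7 on all arrays. Of the 45 tested genes 10, Rab44 included, stayed below 100 on all arrays.

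The 250 bases before the transcription start are shown for Rab31 and Rab11a, as the clearest fall and rise, and for Rab43 and Rab7, whose windows hold a GATA-type word. They are RefSeq sequences of build GRCm38.p6, all from the minus strand and written 5′ to 3′ in the direction of the gene. Capitals mark the letters GATA with A or T before and A or G after them, searched on both strands, so that a match on the other strand shows as its reverse complement.
Rab31 chr17:65772753-65773002: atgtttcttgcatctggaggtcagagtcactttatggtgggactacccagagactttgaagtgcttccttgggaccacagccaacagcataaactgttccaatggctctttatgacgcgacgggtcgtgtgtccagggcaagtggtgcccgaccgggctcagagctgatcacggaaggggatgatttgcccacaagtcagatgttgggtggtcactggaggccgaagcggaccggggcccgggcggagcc
Rab11a chr9:64737757-64738006: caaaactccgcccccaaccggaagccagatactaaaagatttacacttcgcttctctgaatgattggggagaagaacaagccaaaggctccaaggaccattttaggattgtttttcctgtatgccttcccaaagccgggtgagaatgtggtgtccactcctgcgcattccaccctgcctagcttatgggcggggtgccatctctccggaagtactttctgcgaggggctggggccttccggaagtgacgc
Rab43 chr6:87809758-87810007: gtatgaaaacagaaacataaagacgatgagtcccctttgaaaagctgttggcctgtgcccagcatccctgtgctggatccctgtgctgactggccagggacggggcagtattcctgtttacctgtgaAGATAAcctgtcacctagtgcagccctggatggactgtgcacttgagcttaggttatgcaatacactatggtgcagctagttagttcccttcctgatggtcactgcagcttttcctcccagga
Rab7 chr6:88045271-88045520: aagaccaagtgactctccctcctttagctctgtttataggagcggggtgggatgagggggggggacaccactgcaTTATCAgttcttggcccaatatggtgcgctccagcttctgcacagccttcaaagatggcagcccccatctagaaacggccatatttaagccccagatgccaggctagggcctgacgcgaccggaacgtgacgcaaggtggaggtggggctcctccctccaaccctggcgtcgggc
The match lies 123 bases before the start in Rab43, at 1 of its 4 annotated starts, and 175 before it in Rab7, at 1 of 2. Of 14 genes called at 42 h, 8 had a window and 2 a match, in 2 of their 13 windows. A match was found in 13 of 60 Rab windows (21.7%) and in 26.5% of all 32851 windows of this length. These are matches of letters and not measured binding.

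The effect of GATA1 differed between 42 h and 18 h for 5 Rab genes, all toward a lower value at 42 h. Over all tested genes 4.66% passed this test, 2.37% toward lower and 2.29% toward higher. The difference of the log2 effects was -1.40 ± 0.16 for Rab31 (limma adjusted p = 0.001234) and -1.50 ± 0.27 for Rab44 (limma adjusted p = 0.0127). The Rab44 value depended on the pseudocount, at -2.34 with 1 and -0.74 with 64. Without the 5 arrays of high 18S signal described below, 0 of the 5 genes passed limma (adjusted p of 0.0655 to 0.227), with all 5 at an unadjusted p below 0.05 and differences of -1.47 to -0.51. It was -0.54 ± 0.09 for Rab38 (limma adjusted p = 0.01001), -0.71 ± 0.15 for Rab17 (limma adjusted p = 0.02513) and -0.59 ± 0.14 for Rab27a (limma adjusted p = 0.04116). The Rab17 call ended without GATA1 42 h replicate A or B, vector 42 h replicate A or B or GATA1 18 h replicate B or C, with adjusted p of 0.052 to 0.0681 and differences of -0.71 to -0.65. The Rab27a call ended without any 1 of the 12 arrays other than GATA1 18 h replicate A, with adjusted p of 0.0516 to 0.101.

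Within GATA1-labelled cells, 10 Rab genes were lower and 1 higher at 42 h than at 18 h, where 14.6% of all tested genes were called, 7.91% lower and 6.72% higher. Without overlap between the times, 8 were higher and 14 lower, against 16.3% and 15.1% of all tested genes. This comparison shares the 42 h GATA1-labelled arrays with the one above. Rab31 changed by -1.62 ± 0.11 (limma adjusted p = 2.164e-05), Rab44 by -1.45 ± 0.19 (-2.29 and -0.70 at pseudocounts of 1 and 64) and Rab27a by -0.73 ± 0.10. The other lower genes were Rab38 (-0.59), Rab17 (-0.56), Rab3d (-0.46), Rab43 (-0.43), Rab27b (-0.41), Rab37 (-0.38) and Rab10 (-0.29). Rab28, known from cone photoreceptors, was the higher one, at 1233.2, 1111.0 and 1035.8 in GATA1-labelled cells at 42 h and 750.0, 763.8 and 907.0 at 18 h (limma adjusted p = 0.01837). The calls of Rab10, Rab27b, Rab28, Rab37 and Rab43 each ended on leaving out 1 of 3 to 7 arrays. These were the 6 GATA1-labelled arrays and, for Rab27b, also vector 42 h and 18 h replicate C, with adjusted p of 0.0532 to 0.142.

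Within vector-labelled cells, 0 of 45 Rab genes passed limma between 42 h and 18 h, with 2 at an unadjusted p below 0.05, and 0.0186% of all tested genes were called. Without overlap between the times, 0 were higher and 2 lower, against 3.1% and 7.16% of all tested genes. The lowest adjusted p, for any Rab gene, was 0.7465.

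The regulators of Rab proteins moved in both directions at 42 h. Of 34 tested GEFs 5 rose and 6 fell, against 10.3% and 10.6% of all tested genes. Rab3il1, an exchange factor for Rab3a and Rab8, read 118.5, 147.6 and 235.7 with GATA1 and 16.01, 23.27 and 27.56 with vector, a rise of 2.22. Dennd2c rose by 1.32 and Trappc10, a subunit of the TRAPP tethering complex, by 0.71, while Dennd1c, Rin3 and Dennd3 fell by 0.82, 0.81 and 0.62 on the log2 scale. Rin3 is an exchange factor for Rab5 family members, Rab31 among them.

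Of 31 tested genes on the GAP list 4 rose and 6 fell at 42 h, against 10.3% and 10.6% of all tested genes. Tbc1d24, which carries a TBC domain, rose most, by 2.95, at 1793.7, 1481.6 and 1307.4 with GATA1 and 195.6, 156.6 and 198.2 with vector. Tbc1d2b and Rabgap1l rose by 1.43 and 1.09 at 42 h and by 1.10 and 0.79 at 18 h. They were the only 2 of the list called at 18 h, against 1.85% of all tested genes. Tbc1d10c, known from lymphocytes, fell by 1.54, Tbc1d4 by 0.94 and Tbc1d2 by 0.79 on the log2 scale.

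Of 27 tested effectors 4 rose and 9 fell at 42 h, against 10.3% and 10.6% of all tested genes. Sytl1, a synaptotagmin-like effector of Rab27, read 10.58, 13.62 and 14.6 with GATA1 and 63.43, 33.9 and 38.35 with vector, and fell by 1.05 on the log2 scale. Appl1, an effector of Rab5, fell by 1.12 and Mical1 fell by 0.99 on the log2 scale. Ocrl, a phosphoinositide phosphatase bound by several Rabs, rose by 0.93, Zfyve27 by 0.33 and Bicd2, a dynein adaptor recruited by Rab6, by 0.32. At 18 h 1 of the 27 effectors was called, against 1.85% of all tested genes. It was Rilpl2, which fell by 0.61 on the log2 scale.

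Of 32 tested genes of platelet granule and lysosome-related organelle biogenesis, 4 rose and 7 fell at 42 h. The shares of all tested genes were 10.3% and 10.6%. Vamp8, a SNARE of platelet and mast cell secretion, read 3653.5, 4399.6 and 4390.2 with GATA1 and 9093.2, 9948.9 and 9750.7 with vector, and fell by 1.21 on the log2 scale. Nbeal2, needed for alpha granules, and Dtnbp1, a BLOC-1 subunit, fell by 0.97 and 0.91 on the log2 scale. Snap23, a platelet SNARE, rose by 0.72 at 42 h and 0.47 at 18 h, and Bloc1s4 rose by 0.45 at 42 h. Of 7 tested genes of prenylation and GDI, 1 rose, Rabggta, a subunit of the Rab geranylgeranyl transferase, by 0.33. For the 5 lists the median change lay between -0.09 and 0.05 at 42 h, near the 0.001 of all tested genes. Hps1, Hps4, Unc13d and Sytl4 stand in 2 lists.

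Across the 12 arrays, the genes whose log2 values followed Rab27b most closely were Acsbg1 (Pearson r = 0.946), Havcr2 (0.935) and Acadm (0.934). These r values describe 12 arrays in 4 groups and carry no p. At 42 h Acsbg1 changed by -0.53 and Acadm by -0.55, and both passed, while the change of Havcr2, -0.49, did not (limma adjusted p = 0.05879).

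Rab5c, the remaining Rab5 paralog, could not be placed by group. It read 280.2, 1484.5 and 2123.3 with GATA1 and 324.7, 2079.9 and 1750.2 with vector at 42 h. On the 18 h arrays it read 742.7, 1641.7 and 1832.4 with GATA1 and 895.7, 633.4 and 1845.5 with vector. Its 42 h change of -0.14 carried a standard error of 0.89. The low readings, 280.2 to 895.7, came from the 5 arrays where the 5′ control probe set of 18S ribosomal RNA had a log2 intensity of 8.32 to 12.41. These are all arrays lettered A and vector 18 h replicate B. On the other 7 arrays the control lay between 4.79 and 6.75 and Rab5c between 1484.5 and 2123.3. Rab5c was the 1 tested Rab gene lower on all 5 than on all 7, against 0.855% of all tested genes, and the part of the 18S signal was not tested.

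**Figure D4:**
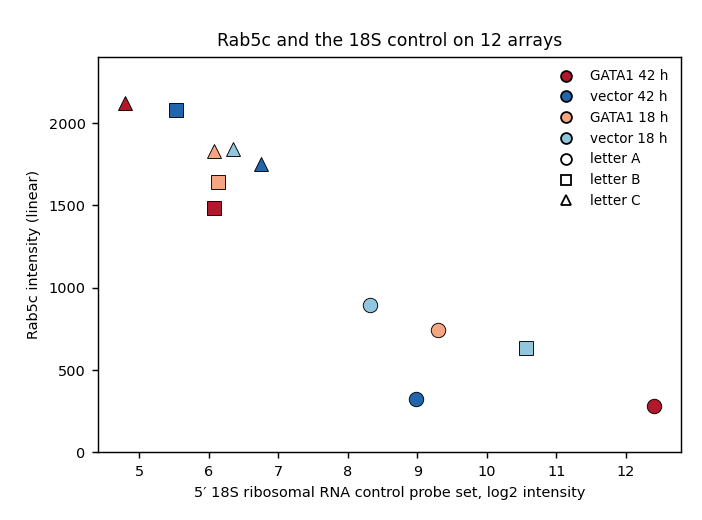
Linear intensity of Rab5c against the log2 intensity of the 5′ 18S ribosomal RNA control probe set on the 12 arrays, coloured by group and shaped by replicate letter. The 5 arrays with a control above 8 read 280.2 to 895.7 for Rab5c, and the other 7 read 1484.5 to 2123.3.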

How the data were processed

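Total RNA of 12 samples was hybridised to Affymetrix arrays. The deposited table holds linear intensities processed by the authors, made with GCRMA or MAS5, both named in the submitters' processing notes with no word on which gave these values. The intensities were used as log2(intensity + 16), with no further normalization. Of 45101 probe sets, 34945 have a single gene symbol, 932 several, 9160 none and 64 are controls. The rule for testing a gene and the choice of its brightest probe set are given with the results.

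One limma model (version 3.58.1, R 4.3.3) over all 12 arrays in 4 groups gave the 5 comparisons, with Benjamini-Hochberg adjustment over 10759 genes. The model was tested on simulated data. Where probe sets other than the brightest are given, all 19636 tested probe sets were fitted together. No 2 arrays held the same values.

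Members, compartments and lists (5 of Rab function, 5 of lineage markers: megakaryocyte, erythroid, mast cell, myeloid, lymphoid) were chosen with earlier results of these data known. Per-array values are given for Rab27a, Rab27b, Rab genes called at 18 h and up to 10 rises and 10 falls at 42 h. Other called Rab genes get their change. The lists of Rab function and the megakaryocyte and mast cell lists get up to 3 largest rises and falls at 42 h. The erythroid, myeloid and lymphoid lists are given mainly by counts. Nothing states that replicates are separate cultures beyond "triplicates", so p-values measure the spread between these arrays. Alternatives included other pseudocounts, filters, probe sets, quantile normalization, a replicate block, array weights and each array left out.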

Additional observations from a re-analysis of the deposited data

Results flagged for a closer look

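For 5 Rab genes the effect of GATA1 differed between 42 h and 18 h by a direct test of the difference, over 12 arrays with 3 in each group. Over all tested genes 4.66% passed this test, 2.37% toward lower and 2.29% toward higher. The difference of log2 effects, 42 h minus 18 h, was -1.40 for Rab31, -1.50 for Rab44 (-2.34 and -0.74 at pseudocounts of 1 and 64), -0.71 for Rab17, -0.59 for Rab27a and -0.54 for Rab38. The 42 h effect was below 0 for all 5. At 18 h the effect was -0.42 ± 0.11 (SE) for Rab31, -0.30 ± 0.10 for Rab17 and 0.22 ± 0.10 for Rab27a. The 18 h effects of Rab38 (-0.05 ± 0.06) and Rab44 (0.16 ± 0.19) lay within their standard error of 0, so their sign was not settled. None of the 5 passed the test at 18 h. On second probe sets the difference was -1.30 for Rab31, -0.26 for Rab17, -0.21 for Rab27a and -0.58 for Rab38, and none passed limma. The Rab27a call ended on leaving out any 1 of 11 arrays, and the Rab17 call on leaving out any 1 of 6.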

How the results depend on the processing

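No Rab result changed direction under any alternative. At 42 h Rab11a, Rab17, Rab31, Rab38, Rab43 and Rab44 passed under every alternative run, and the other 8 missed the threshold under some. Rab43 and Rab44 have no second tested probe set, so that alternative could not end their calls. They were run under 24 and 23 alternatives, against 25 for the others, as the stricter filter also left out Rab44. The count of Rab genes called at 42 h was 14, against 8 when only the 6 arrays compared were fitted, 7 on second brightest probe sets, 9 without the 5 arrays of high 18S signal, and 10 to 15 with each array left out. At 18 h it was 1, against 0 with only the arrays compared, on second probe sets, without the high 18S arrays or without the arrays lettered A, and 1 to 2 with each array left out. For the difference of effects it was 5, against 3 with no filter, 0 on second probe sets, 2 on the mean over probe sets, 0 without the high 18S arrays, 1 without the arrays lettered A, and 3 to 5 with each array left out. Within GATA1-labelled cells it was 11, against 19 with array weights, 1 on second probe sets, 7 on the mean over probe sets, 6 without the high 18S arrays, 7 without the arrays lettered A, and 7 to 12 with each array left out. Within vector-labelled cells it was 0 throughout. Leaving out the high 18S arrays and those lettered A was chosen after seeing the data, and dropping the high 18S arrays leaves 7, with 1 for vector at 18 h that is assumed to vary like the rest. Over all tested genes the alternatives gave 643 to 3053 calls at 42 h, against 2251, and 0 to 358 at 18 h, against 199. They gave 100 to 846 for the difference of effects, against 501, 406 to 2929 within GATA1-labelled cells, against 1574, and 0 to 41 within vector-labelled cells, against 2. Of 812 repeats of single Rab results 149 missed the threshold and 0 reversed, and 84 of 498 repeats of list counts moved by over 1.5 times. The 643 calls at 42 h were on second probe sets, which cover 5087 genes, and the 3053 were with the replicate block. With only the 6 arrays of 42 h, 805 of 10759 genes rose and 875 fell, against 1113 and 1138 in the main fit. The 2929 calls within GATA1-labelled cells came with array weights. Apart from the smaller number of genes with a second probe set, the cause of these shifts was not tested.

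With the replicate block the counts were 17, 2, 6, 13 and 0, in the same order of comparisons. Calls over all 10759 tested genes rose as well. They were 3053 at 42 h, 358 at 18 h, 846 for the difference of effects and 41 within vector-labelled cells, against 2251, 199, 501 and 2. Within GATA1-labelled cells 1082 were higher and 1233 lower, against 723 and 851. The block added Rab2b, Rab24 and Rab40c at 42 h, Rab4a at 18 h, Rab7 for the difference of effects, and Rab6a, Rab7 and Rab12 within GATA1-labelled cells, where Rab27b no longer passed (limma adjusted p = 0.054). The main model did not take the letters as pairs, since they are not said to mark a shared culture or day. Same-letter correlations of the deviations ran between -0.107 and 0.657 over 18 pairs. Their median was 0.414, against -0.175 over 36 pairs of different letters (-0.629 to 0.393). As a hint from the data, 10 of 12 arrays correlated best with their own letter.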

Other observations

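The lineage lists not described above also moved. Of 9 tested myeloid markers 1 rose and 4 fell at 42 h, against 10.3% and 10.6% of all tested genes. Their list had a summed intensity of 1481 to 1740 on GATA1-labelled and 4504 to 5014 on vector-labelled arrays at 42 h. Of 2 tested lymphoid markers 1 fell, with list sums of 86 to 114 on GATA1-labelled and 123 to 198 on vector-labelled arrays at 42 h. The other 9 of the 11 with a probe set were not tested.

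Rab2b has 5 probe sets, and its brightest did not pass at 42 h. In the fit of all probe sets together, 2 dimmer sets changed by -0.37 ± 0.11 (limma adjusted p = 0.045651) and -0.47 ± 0.10 (limma adjusted p = 0.011877), and the others by -0.73, -0.44 and -0.13 without passing. Rab18 did not pass on its brightest probe set either, at 0.45 ± 0.20 in that fit (limma adjusted p = 0.18762). Its second set rose by 0.35 ± 0.07 (limma adjusted p = 0.010821). Rab2b and Rab18 were picked out after their values were seen.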
